A study of Mus musculus with 8 samples.

Results

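The 4 mammalian Notch receptors (Notch1 to Notch4) and the 5 ligands of the Delta and Jagged families (Dll1, Dll3, Dll4, Jag1 and Jag2) were followed in RNA-Seq of mouse pancreatic islets. The members are the rows of the deposited gene count table that carry these symbols, and they are 9 of its 32531 genes. No measured value entered the rule, although the genes were chosen with earlier results of these data known. Islets of 4 controls (RIP-Cre+, Rosa26-rtTA+, tetO_NICD-) were compared with islets of 4 β-tetO-NICD mice (RIP-Cre+, Rosa26-rtTA+, tetO_NICD+), all on a mixed background of C57BL/6J, 129X1/SvJ and BALB/c. Both groups drank doxycycline (Dox) for 8 weeks, and so both carried Cre, rtTA and Dox. The rat insulin promoter drives Cre, so that Dox induces the Notch1 intracellular domain (NICD) in β cells, while the other cells of the islet carry the tetO transgene without expressing it by design. Ages were not given in the labels. Each library was taken as 1 animal, as the methods count 4 controls and 4 β-tetO-NICD, and p values measure only the spread between these libraries, which may in part be technical.

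Notch receptors are cell surface proteins that are cut by an ADAM protease and then by γ-secretase when a ligand on a neighboring cell binds them. The released intracellular domain enters the nucleus, joins the DNA-binding protein Rbpj and a Mastermind coactivator, and switches on target genes such as Hes and Hey repressors. In the pancreas the pathway is known for holding back endocrine differentiation during development, and in adult islets its receptors and ligands are also found in blood vessels. A NICD transgene bypasses ligand and cleavage. The comparison therefore asked which receptor and ligand RNAs of whole islets differed when 1 receptor was made active in β cells.

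Total counts were between 22430941 and 25950164 in controls and between 21701223 and 26413146 in β-tetO-NICD libraries, and levels are given as CPM, the counts scaled to library size with edgeR's TMM factors. A floor of 3 counts was worth at most 0.151 CPM in any library, which speaks of counting error alone. Columns for β-tetO-NICD islets are named NICD-1, NICD-2, NICD-4 and NICD-5, and the last pair could be given their group but no single labelled sample. The libraries also differed in a way the labels do not give. For each gene, the deviation of its log2 CPM in a library from its mean over the 8 libraries was taken. The rank correlation of this deviation with transcript length, over 14655 genes, is called the length correlation below. It was between 0.418 and 0.497 in Control-1, Control-2, Control-4 and NICD-1, and between -0.521 and -0.174 in Control-3, NICD-2, NICD-4 and NICD-5. Its sign is therefore relative to the average of the 8 libraries. Eif2s3y, a Y-linked gene, had 1300 to 1527 counts in Control-2, Control-4 and NICD-5 and at most 1 count in the other 5 libraries, although the methods describe male islets. Values within the sets of libraries by length correlation are given for Notch2, Notch3, Notch4, Dll1, Jag1 and Jag2. Those by Eif2s3y are given for Notch3, Dll1 and Jag1, and in part for Jag2.

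By edgeR's test 3 of 10 β cell markers fell (2.57% of all tested genes were called lower), and 3 of 5 α cell markers and 1 of 4 δ cell markers rose in β-tetO-NICD islets (4.19% were called higher). The β cell markers summed to 157051 to 197631 CPM in controls, against 72353 to 172043 CPM in β-tetO-NICD islets, and the α cell markers to 11388 to 41221 CPM, against 53486 to 67152 CPM with no overlap. The δ cell markers summed to 2438 to 6583 CPM in controls, against 5083 to 14136 CPM in β-tetO-NICD islets. The summed level of 9 macrophage markers was 162 to 214 CPM in controls, against 232 to 338 CPM in β-tetO-NICD islets, with 1 marker higher. The 11 acinar markers summed to 40503 to 81431 CPM in controls, against 34335 to 122831 CPM in β-tetO-NICD islets, the highest in NICD-1, with 0 called by edgeR, DESeq2 or at an unadjusted p under 0.05. The 12 endothelial markers summed to 583 to 934 CPM in controls, against 768 to 899 CPM in β-tetO-NICD islets, and the 9 mural cell markers to 151 to 266 CPM and 180 to 233 CPM, with overlapping ranges and 0 called in either list. At an unadjusted p under 0.05 the endothelial list had 4 genes and the mural list 3, and DESeq2 called 0 and 1, where 31.6% and 18.2% of all genes passed these thresholds. Among 7 tested duct, 6 fibroblast and 6 Schwann cell markers 0 were called by edgeR. These 3 lists had 3, 0 and 1 genes at an unadjusted p under 0.05, and DESeq2 called 3, 0 and 1. Of the duct genes under the unadjusted threshold Krt19 and Spp1 were higher and Cftr was lower in β-tetO-NICD islets. No marker in any of the lists was at 0 in every library. In whole islets, fewer cells of a type and less RNA per cell cannot be told apart, and the part of cell makeup in the values below was not tested except where a covariate is named.

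Upstream sequence was examined because Notch acts on its targets through Rbpj, whose core binding letters are TGGGAA. The 250 bases before each annotated start in RefSeq (GRCm38.p6) were searched on both strands. The core was found in 0 of the 10 windows of the 9 receptor and ligand genes, against 21.6% of all 32851 windows of that length. Of the 7 fixed target genes, 4 had a window and 2 of these held the core, Hes5 and Hey2. Windows are printed for Dll1, the member closest to the threshold after Notch1, and for Hes5 and Nrarp, target genes described below. Each reads 5′ to 3′ on the strand of the gene, with the core in capitals on whichever strand it lies (TGGGAA or TTCCCA). The Dll1 window is chr17:15376933-15377182 on the minus strand, lies before all annotated Dll1 transcripts and overlaps an exon of the antisense gene A930024N18Rik. The Hes5 window is chr4:154960673-154960922 on the plus strand, and the Nrarp window is chr2:25180508-25180757 on the plus strand.
Dll1: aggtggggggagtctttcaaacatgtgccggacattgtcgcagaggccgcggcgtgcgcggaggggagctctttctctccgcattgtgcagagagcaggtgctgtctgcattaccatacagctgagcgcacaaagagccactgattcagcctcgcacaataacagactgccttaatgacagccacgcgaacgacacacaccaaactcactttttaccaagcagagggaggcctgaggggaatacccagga
Hes5: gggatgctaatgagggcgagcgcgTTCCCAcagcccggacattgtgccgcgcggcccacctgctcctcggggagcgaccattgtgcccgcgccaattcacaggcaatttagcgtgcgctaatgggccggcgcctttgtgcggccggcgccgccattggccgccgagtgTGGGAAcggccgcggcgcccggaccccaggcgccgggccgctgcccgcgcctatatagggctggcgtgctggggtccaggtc
Nrarp: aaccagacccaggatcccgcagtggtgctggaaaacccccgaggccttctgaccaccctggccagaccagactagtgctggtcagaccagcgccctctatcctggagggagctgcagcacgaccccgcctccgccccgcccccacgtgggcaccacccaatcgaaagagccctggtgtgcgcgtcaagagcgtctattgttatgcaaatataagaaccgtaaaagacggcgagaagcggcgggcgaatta
The Hes5 window holds 2 matches in opposite directions, and the windows of Dll1 and Nrarp hold none. The Hes binding letters CACNAG were found once in the window of Notch1, once in those of Notch2 and Dll4 and at 2 places in that of Notch3, against 36.7% of all windows with at least 1 match. CACGTG was in none of the member windows and in 6.02% of all. A match is a description of letters only.

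Notch1 was the member with a called difference. It lies on chromosome 2 of GRCm38 from 26457903 to 26516663 on the minus strand (GENCODE M21). Its level was 64.9, 57.5, 41.6 and 63.3 CPM in Control-1 to Control-4, and 1008, 1321, 1215 and 573 CPM in NICD-1, NICD-2, NICD-4 and NICD-5. The groups did not come near each other, and NICD-5 was the lowest of its group. The log2 fold change was 4.18 with a standard error of 0.30, or 18.1-fold (95% interval of the log2 value 3.50 to 4.86, edgeR's quasi-likelihood test, adjusted p = 0.000102). Ranked by mean CPM, Notch1 was gene 2844 of 32531 in controls and gene 75 in β-tetO-NICD islets. These counts do not separate RNA of the tetO_NICD transgene from RNA of the endogenous gene, and the transgene carries only the intracellular part. Notch1 therefore checks the labels, and all 8 libraries fell on the side their label gives. With each library left out in turn the log2 fold change was between 4.04 and 4.38, and it passed the threshold in 8 of 8 such fits. With the β cell marker score as a covariate the estimate was 5.46 and no gene of the table passed. That score was 10.2 to 10.4 in controls and 9.39 to 9.40 in β-tetO-NICD islets, and it and the group cannot be told apart.

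Of the 8 members that could be tested, 1 rose and 0 fell in β-tetO-NICD islets. Across all 15082 tested genes 4.19% were called higher and 2.57% lower, or 6.76% in either direction. At an unadjusted p under 0.05 the count of members was 2 higher and 0 lower, against 31.6% of all genes in either direction. DESeq2 called 2 members, where it called 18.2% of all genes, and limma-voom 1, where it called 7.18%. The median log2 fold change was 0.14 over the 8 members, with 4 above and 4 below 0, and it was 0.00075 over all tested genes. Groups did not overlap for 2 members, both higher, against 8.22% of all tested genes higher, 7.92% lower and 16.1% in either direction. These were Notch1 and Dll1.

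**Figure D1:**
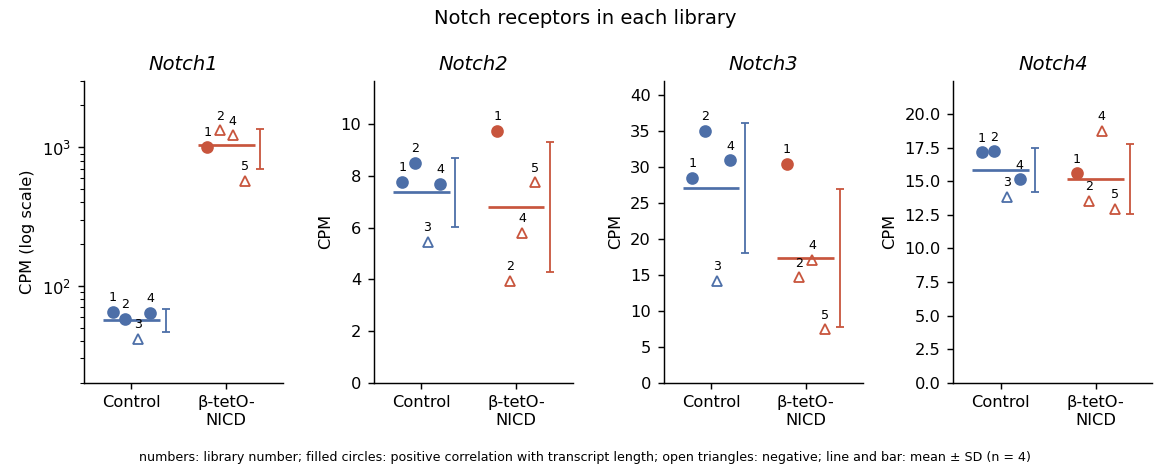
Level of the 4 Notch receptors in CPM (counts scaled to library size) in each library of control and β-tetO-NICD islets; the Notch1 axis is logarithmic, the others start at 0. Points are libraries with their number. Filled circles have a positive and open triangles a negative length correlation, taken on each gene's deviation from its mean over all libraries. Lines with bars are mean ± SD (n = 4). Notch1 separates the groups, while the 4 filled points of Notch3 lie above all 4 open ones whatever the group.

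The other 3 receptors gave no call. Notch2, the receptor with broad roles in bile duct and marginal zone B cell development, was at 7.79, 8.52, 5.46 and 7.71 CPM in the controls and at 9.73, 3.93, 5.81 and 7.75 CPM in β-tetO-NICD islets. The highest and the lowest library were both β-tetO-NICD. It had a log2 fold change of -0.12 (95% interval -0.75 to 0.52, adjusted p = 0.791 from edgeR), an interval that leaves room for a change of either sign. Within the libraries of positive length correlation the controls were at 7.79, 8.52 and 7.71 CPM and NICD-1 at 9.73 CPM, and within the others Control-3 was at 5.46 CPM and the β-tetO-NICD libraries at 3.93, 5.81 and 7.75 CPM. The sign of the estimate turned with the sign of the length correlation as a covariate (0.19, adjusted p = 0.702) and with a length offset (0.43, adjusted p = 0.230).

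Notch4, a receptor known mainly from endothelium, was at 17.1, 17.2, 13.8 and 15.1 CPM in the controls and at 15.6, 13.5, 18.7 and 12.9 CPM in β-tetO-NICD islets. Here too the extremes both lay in the β-tetO-NICD group. The log2 fold change was -0.06 (95% interval -0.43 to 0.31, adjusted p = 0.825 from edgeR). Its interval is the narrowest among the 8 members, and the endothelial marker sums given above also overlapped between groups. The sign turned with the sign of the length correlation as a covariate (0.02, adjusted p = 0.956), with controls at 17.1, 17.2 and 15.1 CPM and NICD-1 at 15.6 CPM in the positive set, and Control-3 at 13.8 CPM and the β-tetO-NICD libraries at 13.5, 18.7 and 12.9 CPM in the other.

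Notch3, a receptor of pericytes and vascular smooth muscle, was at 28.4, 34.9, 14.1 and 30.9 CPM in the controls and at 30.3, 14.6, 16.99 and 7.401 CPM in β-tetO-NICD islets. Control-3 was low among the controls and NICD-1 was high in its group, so that the groups overlapped. The log2 fold change was -0.64 (95% interval -1.54 to 0.25, adjusted p = 0.280 from edgeR). The 4 libraries with a positive length correlation held 28.4 to 34.9 CPM and the 4 with a negative one 7.401 to 16.99 CPM, with no overlap. Of all tested genes, 16.4% separated the libraries in this direction and 31.9% in either. Within the libraries of positive correlation the single β-tetO-NICD value of 30.3 CPM lay inside the control range, and within the others the single control value of 14.1 CPM lay inside the β-tetO-NICD range. With the sign of the length correlation as a covariate, a choice made after the data were seen, the log2 fold change was -0.08 (adjusted p = 0.890). Without NICD-1 it was -1.05 and passed the threshold (adjusted p = 0.0446, with 33.2% of genes called), and without NICD-5 it was -0.39 (adjusted p = 0.478). Among the 5 libraries without Eif2s3y counts the controls were at 28.4 and 14.1 CPM and the β-tetO-NICD libraries at 30.3, 14.6 and 16.99 CPM (log2 fold change -0.05, adjusted p = 0.972), and among the others the controls were at 34.9 and 30.9 CPM and NICD-5 at 7.401 CPM. Without both Control-3 and NICD-1 it was -1.27 (adjusted p = 0.0102, with 39.5% of genes called). In that last fit the group and the sign of the length correlation are the same split and cannot be told apart.

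Summed over Notch2, Notch3 and Notch4, receptor RNA was 33.4 to 60.6 CPM in controls, against 28.1 to 55.7 CPM in β-tetO-NICD islets, and the ranges overlapped. The libraries with a positive length correlation, NICD-1 among them, held 53.3 to 60.6 CPM and the others, Control-3 among them, 28.1 to 41.5 CPM, so that this sum separated by the length correlation and not by group. To compare receptors with each other, CPM was divided by the length of each gene's longest transcript in kilobases. Notch1 made up 48.2% ± 2.98 (SD, n = 4) of the summed receptor level per kilobase in controls, against 95.3% ± 1.49 (SD, n = 4) in β-tetO-NICD islets. The difference of 47.0 percentage points restates the difference in Notch1 on another scale. Its exact two-sided permutation p of 0.0286 over 70 arrangements is the smallest this design can give and is fixed by the separation of Notch1, so it adds no support. The length used is that of the full 9.49 kilobase Notch1 transcript, and the bases of the transgene were not used here, so the share in β-tetO-NICD islets rests on a length longer than the induced RNA. From raw counts with no length the shares were 53.3% and 96.1%.

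**Figure D2:**
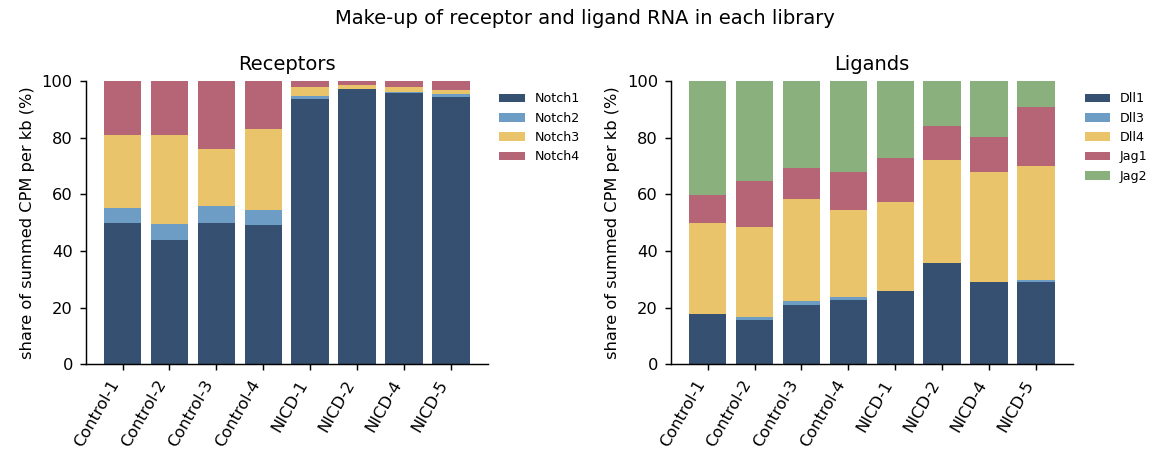
Share of each gene in the summed CPM per kilobase of the 4 receptors (left) and of the 5 ligands (right), as stacked bars for each library. Notch1 takes 43.8% to 50.03% of receptor RNA in the 4 controls and 93.8% to 97.0% in the 4 β-tetO-NICD libraries.

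Among ligands, Dll1 was nearest to a call. It encodes a Delta-like ligand that activates Notch receptors on neighboring cells, and it lies on chromosome 17 from 15367354 to 15376872 on the minus strand. Its level was 8.76, 6.41, 6.33 and 8.48 CPM in the controls and 13.3, 17.6, 13.5 and 9.36 CPM in β-tetO-NICD islets. Every β-tetO-NICD library was above every control, NICD-5 by the least. The log2 fold change was 0.84 with a standard error of 0.22, or 1.80-fold (95% interval of the log2 value 0.35 to 1.34). The unadjusted p was 0.00354 and the adjusted p 0.0512 (edgeR), so the difference missed the threshold of 0.05. Across the 25 alternative fits its log2 fold change kept its sign in 25 and passed the threshold in 7. It lay between 0.69 and 2.46, the highest with the β cell score as a covariate (adjusted p = 0.9999), which cannot be told apart from the group. The next highest was 0.99, without NICD-5. As covariates in edgeR, the endothelial score gave an adjusted p of 0.107, Eif2s3y 0.0913, the mural cell score 0.0837 and the acinar score 0.0600. By DESeq2 the adjusted p was 0.00713, and by limma-voom 0.0527. With edgeR it was 0.0344 under upper-quartile scaling, where 7.68% of genes were called, 0.0479 with a minimum of 10 counts in every library (7.44% called) and 0.0273 with a length offset (10.7% called). With each library left out it was between 0.0255 and 0.154. It passed without NICD-1 (0.0255, 33.2% of genes called), without NICD-5 (0.0285, 4.05% called) and without both Control-3 and NICD-1 (0.0430, 39.5% called).

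The Dll1 difference was present in both sets of libraries by length correlation. Among those with a positive one, the controls were at 8.76, 6.41 and 8.48 CPM and NICD-1 at 13.3 CPM. Among the others, Control-3 was at 6.33 CPM and the β-tetO-NICD libraries at 17.6, 13.5 and 9.36 CPM. With the sign as a covariate, the log2 fold change was 0.92 (adjusted p = 0.0872, edgeR). Among the 5 libraries without Eif2s3y counts Dll1 was at 8.76 and 6.33 CPM in controls, against 13.3, 17.6 and 13.5 CPM in β-tetO-NICD islets (log2 fold change 0.97, adjusted p = 0.179), and among the others at 6.41 and 8.48 CPM against 9.36 CPM in NICD-5. Of the 31-base words of Dll1 transcripts 17.9% are shared with the antisense gene A930024N18Rik, which has no row in the count table. The strand setting of the authors' counting is not given in the sources used here, so reads of that RNA could stand in the Dll1 row. Among the other members the largest shares of words held in common with other genes were 9.4% for Notch1, 6.59% for Notch3, 4.8% for Dll4 and 4.28% for Notch2.

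**Figure D3:**
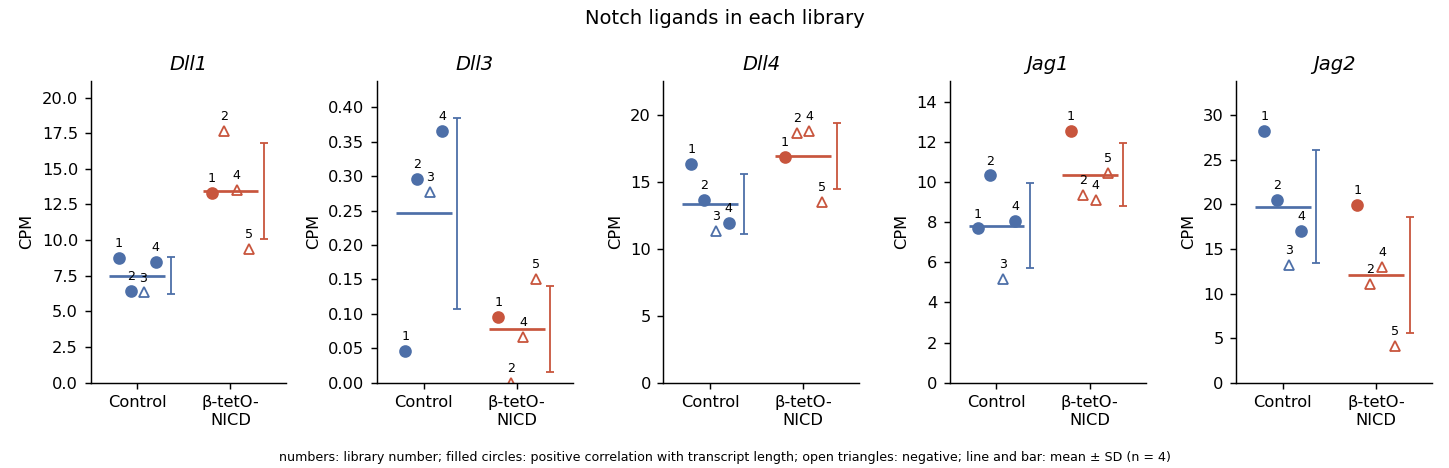
Level of the 5 Notch ligands in CPM in each library, drawn as for the receptors, with every axis starting at 0. For Dll1 the 4 β-tetO-NICD points lie above the 4 controls, from 9.36 CPM against at most 8.76 CPM, and for Jag2 the filled points lie above the open ones in both groups.

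Dll4, the Delta ligand of endothelial tip cells, was at 16.4, 13.7, 11.3 and 11.9 CPM in the controls and at 16.9, 18.6, 18.8 and 13.5 CPM in β-tetO-NICD islets. Only NICD-5 lay within the control range. On the log2 scale the difference was 0.35 (95% interval -0.05 to 0.74, adjusted p = 0.198 from edgeR), and it was 0.27 with the endothelial marker score as a covariate (adjusted p = 0.334).

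Jag1, the ligand mutated in Alagille syndrome, was at 7.70, 10.3, 5.18 and 8.07 CPM in the controls and at 12.5, 9.38, 9.12 and 10.5 CPM in β-tetO-NICD islets. Control-2 lay inside the β-tetO-NICD range and Control-3 was the lowest library. By edgeR the log2 fold change was 0.41 (95% interval -0.10 to 0.91, adjusted p = 0.232). With an offset that removes each library's trend over transcript length it was 0.70 and passed the threshold (adjusted p = 0.0399, where 10.7% of genes were called). With the sign of the length correlation as a covariate it was 0.71 (adjusted p = 0.0869). Within the libraries of positive correlation the controls were at 7.70, 10.3 and 8.07 CPM and NICD-1 at 12.5 CPM, and within the others Control-3 was at 5.18 CPM and the β-tetO-NICD libraries at 9.12 to 10.5 CPM, so the β-tetO-NICD values were the higher ones in each set. Other fits lowered the estimate, to 0.15 without Control-3 and NICD-1 (adjusted p = 0.564), 0.25 without Control-3 (adjusted p = 0.384) and 0.25 with the mural cell score as a covariate (adjusted p = 0.335). Among the 5 libraries without Eif2s3y counts Jag1 was at 7.70 and 5.18 CPM in controls, against 12.5, 9.38 and 9.12 CPM in β-tetO-NICD islets (log2 fold change 0.68, adjusted p = 0.383), and among the others at 10.3 and 8.07 CPM against 10.5 CPM in NICD-5.

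Jag2, the other Jagged ligand, was at 28.2, 20.6, 13.2 and 17.1 CPM in the controls and at 19.9, 11.1, 12.97 and 4.13 CPM in β-tetO-NICD islets. As for Notch3, the libraries split by their length correlation rather than cleanly by group, with 17.1 to 28.2 CPM in those with a positive and 4.13 to 13.2 CPM in those with a negative one. The log2 fold change was -0.71 (95% interval -1.62 to 0.19, adjusted p = 0.243 from edgeR). It was -0.31 with the sign of the length correlation as a covariate (adjusted p = 0.658) and -1.22 without Control-3 and NICD-1 (adjusted p = 0.0364, with 39.5% of genes called), where group and length split coincide. Leaving out NICD-5 gave -0.43 (adjusted p = 0.367) and leaving out NICD-1 gave -1.06 (adjusted p = 0.0573). With Eif2s3y as a covariate the estimate was -1.04 (adjusted p = 0.151). In the 5 libraries without Eif2s3y counts it was -0.50 (adjusted p = 0.648), and in the others Jag2 was at 20.6 and 17.1 CPM in controls, against 4.13 CPM in NICD-5. In the positive set NICD-1 (19.9 CPM) lay inside the control range, and in the other all 3 β-tetO-NICD values lay below Control-3, the nearest being NICD-4 with 12.97 CPM against 13.2 CPM.

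Dll3, a Delta ligand that does not activate Notch in neighboring cells and is known from somite formation, was close to the floor. It had 1, 7, 7 and 9 counts in the controls and 2, 0, 2 and 3 counts in β-tetO-NICD islets, and did not reach 10 counts in any library, so it was left out of the main test. With no filter on low counts its log2 fold change was -1.65 (adjusted p = 0.233 from edgeR). Summed over libraries it had 24 counts (95% exact Poisson interval 15.4 to 35.7) in controls and 7 (2.81 to 14.4) in β-tetO-NICD islets. The intervals cover counting error only and not the spread between animals, and every β-tetO-NICD library and Control-1 were at or under the floor of 3 counts.

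**Figure D4:**
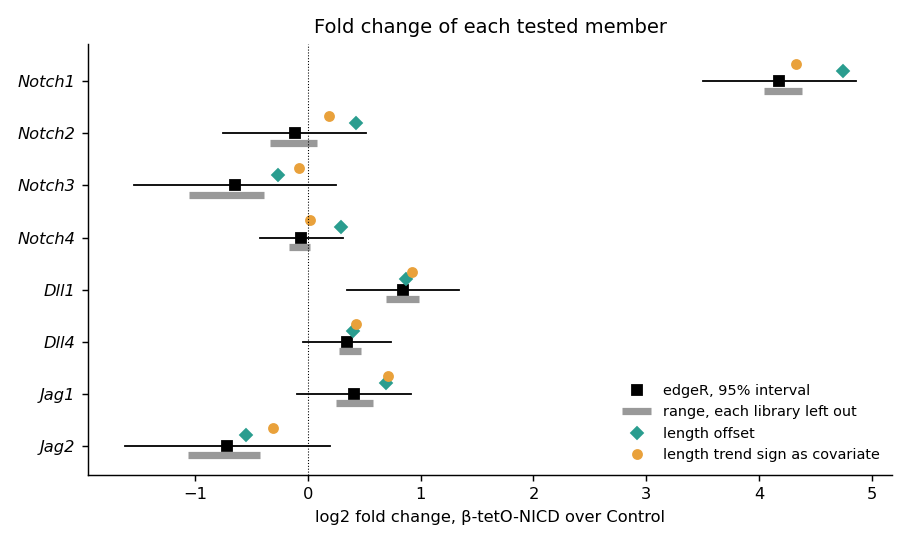
Log2 fold change of the 8 tested members, β-tetO-NICD over control, with edgeR's estimate and 95% interval (black), the range with each library left out (grey), the estimate with a length offset (green diamonds) and that with the sign of the length correlation as a covariate (orange circles). The interval of Notch1 starts at 3.50 and that of Dll1 at 0.35, while the other 6 include 0, and the estimates of Notch3 and Jag2 move toward 0 with either length correction.

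Summed over the 5 ligands, the level was 36.3 to 61.1 CPM in controls, against 37.6 to 62.7 CPM in β-tetO-NICD islets. The ranges of the sum overlapped almost fully. Dll1 made up 19.3% ± 3.12 (SD, n = 4) of ligand RNA per kilobase in controls, against 30.0% ± 4.21 (SD, n = 4) in β-tetO-NICD islets, and Jag2 made up 34.5% ± 4.25 and 17.9% ± 7.56 (SD, n = 4 each). For both shares the ranges of the groups did not overlap, which describes the members above and was not tested. The 3 Delta ligands summed to 21.1 ± 3.003 CPM in controls, against 30.5 ± 5.56 CPM in β-tetO-NICD islets (SD, n = 4), and the 2 Jagged ligands to 27.6 ± 7.54 CPM and 22.4 ± 7.45 CPM. The Jagged sum also separated by the length correlation, with 25.1 to 35.9 CPM in the libraries of positive and 14.6 to 22.1 CPM in those of negative correlation. NICD-1 lay inside the control range of the first set and Control-3 inside the β-tetO-NICD range of the second.

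Ordered by mean CPM per kilobase in controls, Notch1 (5.99) came first, followed by Jag2 (3.87), Dll4 (3.56), Notch3 (3.38), Notch4 (2.40), Dll1 (2.09), Jag1 (1.39), Notch2 (0.702) and Dll3 (0.0939). Neighbors overlapped in range from Notch1 down to Jag1, and only Notch2 and Dll3 stood apart from the gene before them. In β-tetO-NICD islets Notch1 (108) stood apart from all others. Dll4 (4.52), Dll1 (3.76), Jag2 (2.36), Notch4 (2.30), Notch3 (2.16) and Jag1 (1.85) followed with overlapping ranges between neighbors, and Notch2 (0.648) and Dll3 (0.0298) again came last.

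The rest of the pathway was read from 7 lists of 48 genes, of which 47 were tested. Of these 7 were called higher and 0 lower, with a median log2 fold change of 0.14, against the 4.19% and 2.57% of all genes given above. The calls lay in 3 lists. Among 7 target genes 5 were called higher, and none of the 7 estimates was below 0. Hes1, a repressor of proneural and endocrine genes, was at 6.00 to 8.50 CPM in controls, against 31.6 to 55.8 CPM in β-tetO-NICD islets (log2 fold change 2.61, adjusted p = 0.000140). Hey1 and Heyl, related repressors, rose by 4.04 and 3.56 on the log2 scale (adjusted p = 0.000159 and 0.000139). Nrarp, a feedback inhibitor that binds the NICD complex, rose by 3.36 on the log2 scale (adjusted p = 8.52e-05). Hes5 reached no more than 1 count in a control and had 71 counts or more in each β-tetO-NICD library. The mean of the β-tetO-NICD libraries, 12.1 CPM, was at least 95.9-fold higher than a floor of 3 counts in each control. It met the filter on low counts only through the β-tetO-NICD libraries, so that its call is given as a description and no p is printed. Without Hes5 the calls were 4 of 6 target genes and 6 of 46 pathway genes, all higher. The adjusted p values of these genes are from edgeR.

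Among 4 genes for the endocytosis of ligands, which pulls on a bound receptor and exposes its cleavage site, 1 rose. This was Neurl1b, an E3 ubiquitin ligase, with 5.34 to 8.48 CPM in controls, against 67.6 to 108 CPM in β-tetO-NICD islets (log2 fold change 3.78, adjusted p = 3.71e-05 from edgeR). This list had 3 genes at an unadjusted p under 0.05, and DESeq2 called 2 and limma-voom 1. Of all genes 31.6%, 18.2% and 7.18% passed these thresholds. Besides Neurl1b, those under the unadjusted threshold were Neurl1a (log2 fold change 0.79, adjusted p = 0.0650 from edgeR) and Mib1 (-0.56, adjusted p = 0.121). Among 7 tested genes for atypical ligands 1 rose. This was Mfap2, a protein of extracellular microfibrils, with 1.24, 2.996, 4.15 and 3.20 CPM in the controls and 4.46, 8.64, 9.32 and 9.77 CPM in β-tetO-NICD islets (log2 fold change 1.47, adjusted p = 0.0460 from edgeR). In this list 4 genes had an unadjusted p under 0.05, and DESeq2 called 3 and limma-voom 1. Besides Mfap2, those under the unadjusted threshold were Dlk1 (log2 fold change -2.07, adjusted p = 0.0764 from edgeR), Egfl7 (0.80, adjusted p = 0.0597) and Mfap5 (1.24, adjusted p = 0.128). The call of Mfap2 passed in 2 of 8 fits with a library left out and not with the length offset (adjusted p = 0.0624), while Neurl1b, Hes1, Hey1, Heyl and Nrarp passed in 8 of 8.

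The genes that handle the receptor or carry its signal gave no call by edgeR in the main fit. These were 10 genes for receptor cleavage, 5 for receptor glycosylation, 7 of the nuclear complex and 7 inhibitors and turnover genes. At an unadjusted p under 0.05 the counts were 1, 0, 0 and 3. DESeq2 called 1, 0, 0 and 0 and limma-voom 0 in each. Of all tested genes 31.6% passed the unadjusted threshold, and 6.76% were called by edgeR, 18.2% by DESeq2 and 7.18% by limma-voom. With the length offset in edgeR Dtx4 passed (log2 fold change 0.64, adjusted p = 0.0198), where 10.7% of genes were called. Adam10, Psenen, Maml3, Ep300 and Itch each passed in 1 of 8 edgeR fits with a library left out. The most abundant gene of each list is given with its range in controls and then in β-tetO-NICD islets. Ncstn, a γ-secretase subunit, was at 121 to 129 CPM and 80.8 to 137 CPM. Poglut1, which adds glucose to EGF repeats of the receptor, was at 38.3 to 45.1 CPM and 36.3 to 42.8 CPM. Snw1, a coregulator and splicing factor, was at 60.1 to 72.1 CPM and 62.2 to 82.4 CPM. Dtx3, a Deltex ubiquitin ligase, was at 57.4 to 61.1 CPM and 56.7 to 89.8 CPM. In each of these 4 genes the groups overlapped.

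**Figure D5:**
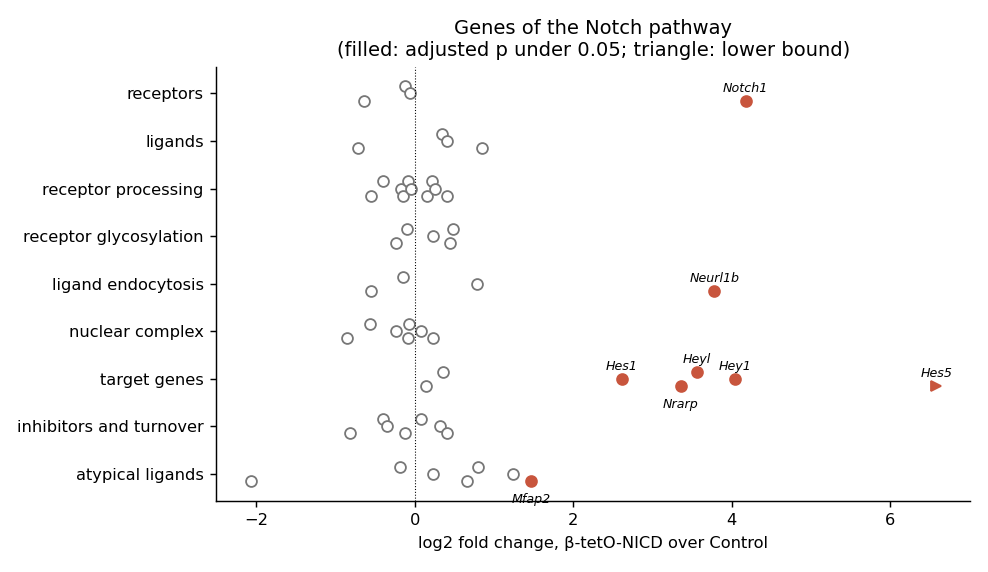
Log2 fold change (β-tetO-NICD over control, edgeR) of each tested gene of the receptors, the ligands and 7 further Notch pathway lists. Filled points passed an adjusted p under 0.05, and Hes5 is drawn at its lower bound of 95.9-fold; the calls are Notch1, 5 target genes, Neurl1b and Mfap2.

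The genes whose log2 CPM followed each member most closely over the 8 libraries were listed as a description, among tested genes with a mean of at least 50 counts. These correlations share the same libraries and their depth, group and length trend, and carry no p. For Notch1 they were Heyl (Pearson r = 0.997), Brinp1 (0.988) and Ttc39c (0.988), and for Dll1 Patz1 (0.991), Kcnj4 (0.974) and Thra (0.963). Notch3 was followed by Rasgrp3 (0.990), Piezo1 (0.986) and Prpf8 (0.985), and 193 genes exceeded 0.95. Jag2 was followed by Rap1gap2 (0.994), Rgl1 (0.991) and Cdc42bpb (0.991), with 255 genes above 0.95. For Notch2 they were Srgap2 (0.957), Zfp827 (0.9504) and Morc4 (0.946), and for Notch4 they included Vil1 (0.974) and Sarm1 (0.967). For Dll4 they were Lrp10 (0.961), Rara (0.960) and D8Ertd82e (0.955), and for Jag1 they included Fblim1 (0.965) and Tril (0.952). These 4 members had 2 to 6 genes above 0.95. Notch3 and Jag2, the 2 members that split with the length correlation, had the most such genes. Since 16.4% of all tested genes split in the same direction, these numbers are not particular to the 2 members. Of the other members Notch1 had 82 and the rest at most 7.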

How the data were processed

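Islet RNA of 4 controls and 4 β-tetO-NICD mice was sequenced from TruSeq stranded mRNA libraries. The authors pseudoaligned reads to the GRCm38 transcriptome with Kallisto and deposited whole-number counts per gene symbol, not normalized. The submitters' processing notes also name bcl2fastq and limma. The Kallisto version, the annotation release, the strand option and the rounding are not given in the sources used here. A deposited table of the authors' own comparison (log2 fold changes, mean log2 expression, p values and related scores) was not used.

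The 9 members, the pathway and marker lists and the tests were chosen with earlier results of these data known. Named from a pathway list were the genes past the threshold, otherwise the most abundant by mean CPM, and for each member the 3 genes with the highest correlation of log2 CPM (prior count 2), of which 2 are not reported here. Genes that reached 10 counts in 4 or more of the 8 libraries were kept, scaled by TMM and compared with edgeR 4.0.16 (R 4.3.3) by the quasi-likelihood test, with p values adjusted by the Benjamini-Hochberg method over all 15082 tested genes and a threshold of 0.05. Standard errors were computed back from the F statistic, and the 95% intervals rest on them. Coordinates and lengths come from GENCODE M21 and promoter windows from RefSeq (GRCm38.p6); all 9 members and 4 of 7 target genes matched a window. Chi-square comparisons of libraries within a group gave at least 31.5 per gene, so none was counted as a duplicate. Levels of a few CPM lie well above the floor of 3 counts, and among the 9 members Dll3 was the one left untested for low counts.

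The alternatives were DESeq2 1.42.0, limma-voom (limma 3.58.1), median-ratio and upper-quartile scaling, TMM without the 10 genes with most counts, other filters on low counts, marker scores for endothelial, acinar and β cells as covariates, a length offset, an Eif2s3y covariate, a replicate block and leaving out each library. A mural cell score, the sign of the length correlation as covariates, a fit of 3 controls against 3 β-tetO-NICD libraries and a fit restricted to the 5 libraries that lack Eif2s3y counts were added after the data were seen. The fits were tested on simulated data first.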

Additional observations from a re-analysis of the deposited data

Results flagged for a closer look

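In groups of 4 libraries, a library was singled out where its gap to the nearest other, divided by the range of the group, exceeded Dixon's 95% critical value for 4 samples, which chance alone passes in about 1 in 20 groups. Of the 60 groups of values examined, 3 passed. The share of Notch1 in control receptor RNA per kilobase was 43.8% in Control-2 and 49.3% to 50.03% in the other controls (gap 0.875). Nrarp was at 4.03 CPM in Control-3 and 2.88 to 3.04 CPM in the other controls (gap 0.862). Hes5 was at 0 counts in Control-4 and 1 count in each of the others (gap 0.858), a difference within counting error.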

How the results depend on the processing

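Libraries differ in length correlation, in Eif2s3y and in markers of cell makeup, and each group has 4 animals. Of the 25 alternative fits, all kept the sign of Notch1, Notch3, Dll1, Dll4 and Jag1, and the call of Notch1 was lost in 1, with the β cell score as a covariate (log2 fold change 5.46, adjusted p = 0.9999). In that fit 0 of 15082 genes and 0 members were called by edgeR, with 140 genes and 1 member at an unadjusted p under 0.05. The score was 10.2 to 10.4 in controls and 9.39 to 9.40 in β-tetO-NICD islets, and it and the group cannot be told apart.

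The number of called genes was 1020, and became 2739 by DESeq2, 558 with the endothelial score, 0 with the β cell score, 1569 with the length offset, 610 with the sign of the length correlation, 6008 with 3 against 3 libraries, 116 with the 5 libraries without Eif2s3y, and 319 to 4953 with a library left out, the highest without NICD-1. Called members, 1 in the main analysis, became 2 by DESeq2, upper-quartile scaling and a minimum of 10 counts in every library, 0 with the β cell score, 3 with the length offset, 4 with 3 against 3 libraries, and 1 to 3 with a library left out (3 without NICD-1, 2 without NICD-5). Called pathway genes, 7 in the main analysis, became 11 by DESeq2, 0 with the β cell score, 21 with 3 against 3 libraries, and 5 to 16 with a library left out. The cause was not tested in any of these.

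The Notch1 share differed by 45.5 to 47.6 points with a library left out, with 47.0 points over all libraries; the exact permutation p, 0.0286 over all libraries and 0.0571 with one left out, was in each case the smallest possible and says nothing of stability. Signs turned for 3 members, none of them called in the main analysis. Notch2, at -0.12, was 0.23 with the β cell score, 0.43 with the length offset, 0.19 with the sign of the length correlation and 0.078 without NICD-2, in a range of -0.34 to 0.078 with a library left out. Notch4, at -0.06, was 0.020 with upper-quartile scaling, 0.077 with the β cell score, 0.29 with the length offset, 0.023 with the sign of the length correlation, 0.015 without NICD-5, in a range of -0.17 to 0.015 with a library left out, and 0.039 in the 5 libraries. Jag2, at -0.71, was 0.58 with the β cell score.

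The replicate numbers were not taken to pair the libraries, since the column NICD-4 could not be tied to a labelled sample, which leaves numbers 1 and 2, and the correlations of their deviations were 0.276 and -0.0901. With numbers 1 and 2 as a replicate block and the other libraries together, 969 genes and 1 member were called and Dll1 had an adjusted p of 0.0673.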

Other observations

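Within the β-tetO-NICD group, the order of the libraries by Notch1 differed from their order by several target genes, a comparison chosen after the values were seen and with too few libraries for a test. NICD-5 had the lowest Notch1 of its group, at 573 CPM against 1008 to 1321 CPM in the others. The same library had the highest Hes5, at 24.1 CPM against 3.37 to 14.2 CPM, the highest Hey1, at 56.8 CPM against 22.8 to 52.8 CPM, the highest Hes1, at 55.8 CPM against 31.6 to 49.6 CPM, and the highest Nrarp, at 39.7 CPM against 21.4 to 38.4 CPM. Heyl went with Notch1 in this library, at 56.8 CPM against 104 to 120 CPM in the others. NICD-1, with 1008 CPM of Notch1, had the lowest Hes1, Hes5, Hey1 and Nrarp of the group. NICD-5 had Eif2s3y counts and a negative length correlation and NICD-1 had neither. NICD-1 also had the highest acinar marker sum of the group, at 122831 CPM, and the lowest β cell marker sum, at 72353 CPM, while NICD-5 had the highest β cell marker sum, at 172043 CPM, and the part of these differences in the order was not tested.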
